A study of Homo sapiens with 24 samples.

Results

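The genes described here code for the subunits of the proteasome, for its activators and for the chaperones that assemble it. They were taken by symbol, as every gene named PSMA, PSMB, PSMC, PSMD, PSME, PSMF or PSMG with a number after it, and the rule used no measured value. It found 48 of the 26475 gene symbols in the count table, and 46 of these were among the 13900 genes that passed the filter on low counts. PSMA8, the alpha subunit of the testis, and PSMB11, the catalytic subunit of the thymus, had 0 counts in each of the 24 libraries, which allows a level of up to 0.576 CPM (read count scaled to the size of the library) in the smallest library (3 counts, counting error only). The RNA came from 3 clones of HK2, an immortalised line of human proximal tubule cells, each of which carries a VHL transgene that is expressed only in the presence of doxycycline (dox). WT8 kept its own VHL gene, which MUT10 and MUT35 had lost to a knockout, and each clone was sequenced in 4 replicates with dox and 4 after dox withdrawal, 24 libraries in all. Without dox, VHL could still be made from its own gene in WT8 and not in MUT10 and MUT35, and withdrawal from WT8 shows what the end of dox and of the transgene does where endogenous VHL stays. Each is a single-cell clone and WT8 is the only one of its kind, so a difference between it and the mutant clones cannot be told apart from a difference between clones.

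Proteins that are to be destroyed are marked with chains of ubiquitin and are degraded in the proteasome. Its core particle, called 20S, is a barrel of alpha rings, which form the gate, and beta rings, which hold the proteolytic sites. The regulatory particle, called 19S, has a base of ATPases that unfold the substrate and a lid that removes the ubiquitin. VHL is the substrate receptor of a ubiquitin ligase that marks the alpha subunits of the hypoxia-inducible factors, so the products of its reaction end in this machine. Interferon-gamma induces a further set of catalytic subunits that take the place of the standard ones, which gives the immunoproteasome and changes the peptides that reach MHC class I.

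The sample labels name the tissue as lung beside the HK2 line and label the mutant clones with dox as WT, and the design text of the series counts all clones without dox, WT8 included, as knockout. A sentence of the study's methods can be read as giving WT8 a VHL mutation too. Clone and dox state were taken from the titles and from the treatment. The kidney factors PAX8 and LHX1 had counts in every library, at 171 to 573 and 21.3 to 51.3 CPM. Of lung epithelium, SFTPA1 and SFTPC were at 0 in all 24 libraries, NKX2-1 in 20 and SCGB1A1 in 16. SFTPB had counts in every library, at 0.206 to 1.19 CPM. LRP2 and AQP1, which mark the differentiated proximal tubule, were at 0 in 21 and 22 libraries. The epithelial marker CDH1 had a median of 0.324 CPM. Summed per library, 10 markers of kidney and proximal tubule were at 377 to 685 CPM with dox and at 835 to 1240 CPM after withdrawal, 5 of epithelium at 376 to 911 CPM, 5 of lung epithelium at 0.215 to 1.20 CPM, and 5 of leukocytes, endothelium and fibroblasts at 9.08 to 35.5 CPM. The summed kidney markers were higher after withdrawal in each clone. The leukocyte, endothelium and fibroblast markers rose from 9.08 to 12.3 CPM with dox to 13.9 to 16.0 CPM in WT8 and from 16.9 to 21.8 to 27.7 to 35.5 CPM in MUT35, and their ranges overlapped in MUT10 (10.4 to 11.8 and 11.3 to 14.2 CPM). The epithelial markers went from 589 to 705 to 864 to 911 CPM in WT8 and overlapped in MUT10 and MUT35. The part of these lists in the results was not tested. VHL was at 17.8 to 34.1 CPM in the libraries after withdrawal and at 192 to 400 CPM with dox, without overlap in any clone (p = 0.029 by a 2-sided exact permutation test, which cannot go lower with 4 against 4). Library totals ran from 5206663 to 18196003 counts. No source says whether replicates were separate cultures, so p-values measure the spread between these libraries. In bulk RNA, fewer cells that express a gene and less of its RNA per cell cannot be told apart.

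Together the proteasome genes took 0.687% ± 0.009 (SD, n = 4) of the counts in WT8 with dox and 0.649% ± 0.0084 after withdrawal. In MUT10 their share was 0.831% ± 0.0021 with dox and 0.669% ± 0.026 after withdrawal, and in MUT35 it was 0.802% ± 0.012 and 0.726% ± 0.013. The mutant clones with dox gave the highest shares and the libraries with dox did not overlap with those without it in any clone. Per kilobase of the representative transcript, levels in WT8 with dox ran from 8.70 ± 1.5 CPM per kilobase for PSMB9 to 352 ± 7.3 for PSMB3, a structural subunit of the beta ring. In this order 38 of 45 neighbouring pairs of genes had overlapping libraries, so most neighbours cannot be ranked. Of the standard catalytic subunits, PSMB7 stood at 146 ± 8.8, PSMB6 at 49.2 ± 5.2 and PSMB5 at 39.2 ± 4.8 CPM per kilobase, above their inducible counterparts PSMB10 at 20.7 ± 3.2, PSMB9 at 8.70 ± 1.5 and PSMB8 at 26.5 ± 1.7. These levels depend on the transcript taken, and per kilobase of the longest annotated transcript PSMB8 came to 12.5, PSMB9 to 3.31, PSMB5 to 36.6 and PSMB6 to 46.5, in the same order within each pair.

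The first comparison asks what dox withdrawal did to these genes within each clone. Calls were made at a false discovery rate (Benjamini-Hochberg) under 0.05 over all 13900 genes, and fold changes are given as log2, dox off minus dox on. In WT8, 22 of 46 proteasome genes fell and 10 rose, where 29.8% and 29.5% of all genes did. In MUT10, 32 fell and 5 rose (all genes, 32.3% and 33.8%), and in MUT35, 25 fell and 8 rose (31.3% and 32.0%), or 5 rose without MUT35 dox on replicate 3. Over MUT10 and MUT35 together, 30 fell and 7 rose, where 35.5% and 38.1% of all genes did. The smallest adjusted p of this pooled response were those of PSME2 (-0.51), PSMC1 (-0.79), PSMG1 (-0.98) and PSMA2 (-0.91) among the falls, and of PSMF1 (0.55), PSMC4 (0.28), PSMA7 (0.37) and PSME1 (0.20) among the rises. The median log2 fold change of the 46 genes was -0.106 in WT8, -0.311 in MUT10 and -0.23 in MUT35, against 0.007, 0.036 and 0.014 over all genes. Few changes were large, with 1, 4 and 1 of the 46 genes past 2-fold. Every library after withdrawal lay below every library with dox for 22 genes in WT8, 31 in MUT10 and 24 in MUT35 (all genes, 28.0%, 24.7% and 29.7%).

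**Figure D1:**
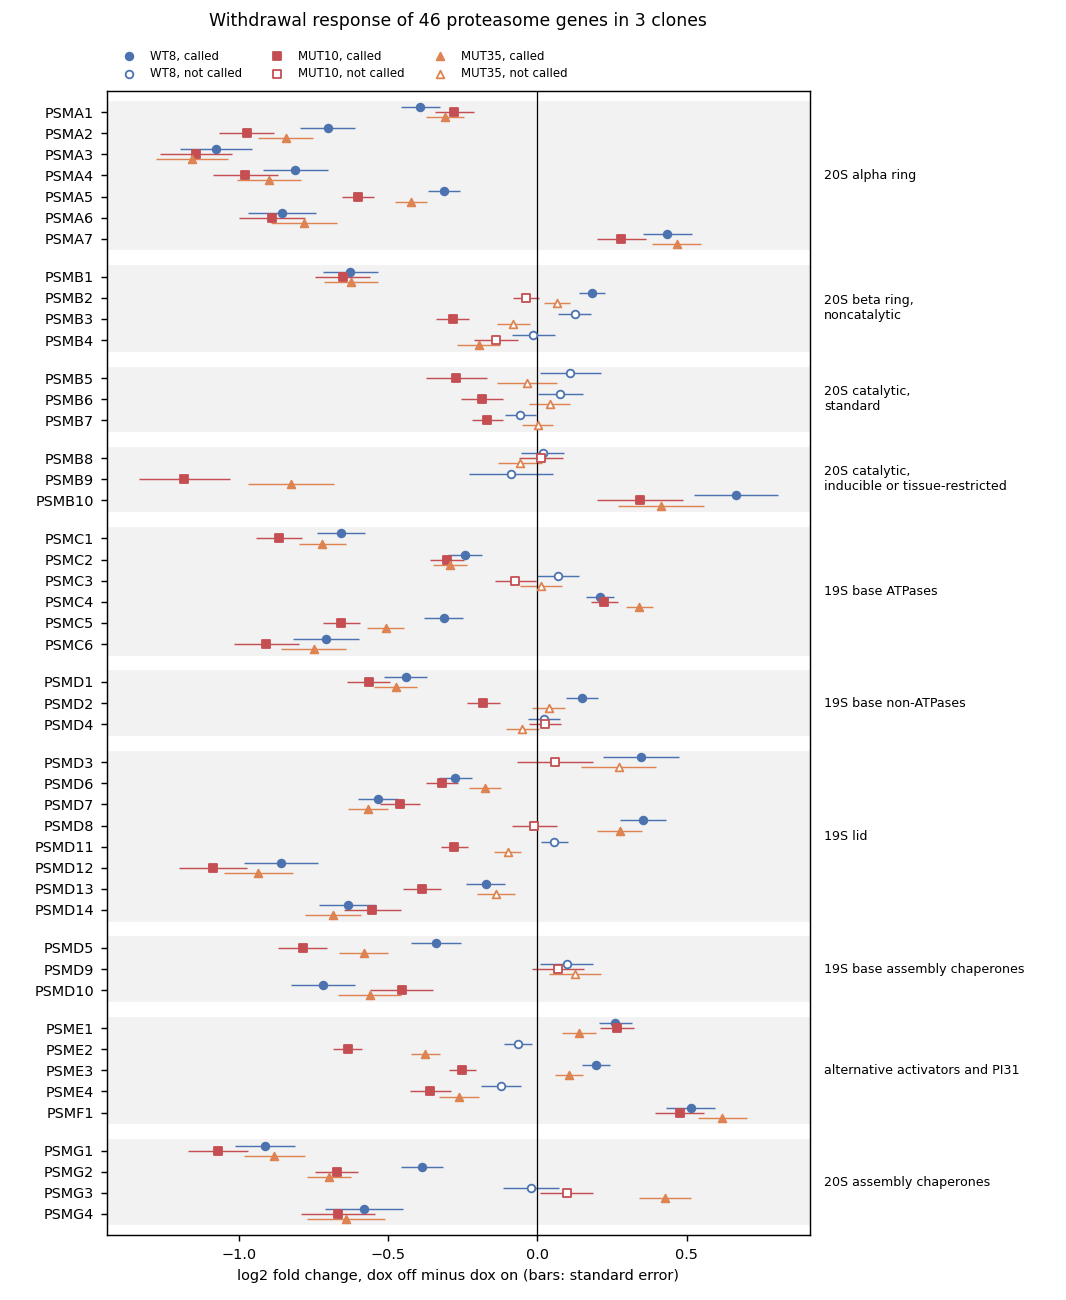
Log2 fold change after dox withdrawal (horizontal axis, dox off minus dox on) of each of the 46 tested proteasome genes (vertical axis), grouped by role, in WT8, MUT10 and MUT35. Points are edgeR estimates, bars are standard errors and filled points passed the threshold. In each clone 6 of 7 alpha subunits fell (all genes, 29.8% in WT8, 32.3% in MUT10 and 31.3% in MUT35). PSMB9 and PSME2 fell in the mutant clones while their WT8 points lie at -0.09 and -0.07.

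The 21 genes that fell in all 3 clones were PSMA1 to PSMA6, PSMB1, PSMC1, PSMC2, PSMC5, PSMC6, PSMD1, PSMD5, PSMD6, PSMD7, PSMD10, PSMD12, PSMD14, PSMG1, PSMG2 and PSMG4. The 5 that rose in all 3 clones were PSMA7, PSMB10, PSMC4, PSME1 and PSMF1. PSMB8, PSMC3, PSMD4 and PSMD9 were not called in any clone. Of all genes, 20.3% fell and 18.3% rose in all 3 clones. With the GC trend described next removed, 20 proteasome genes fell in all 3 clones and 3 rose, PSMB2, PSMC2 and PSMF1 (all genes, 11.9% and 10.4%). Of the 21 falls, 13 were among those 20, and PSMA1, PSMA5, PSMC2, PSMC6, PSMD5, PSMD6, PSMD10 and PSMG2 were not. The alpha ring and the ring of ATPases, whose subunits stand in fixed numbers in the assembled particle, each held transcripts that fell and transcripts that rose in the counts as deposited.

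Calls differed when the GC trend of each library was removed. In every clone, the slope of expression with GC content was higher in the libraries after withdrawal (-0.01 to 0.40 log2 per 10 percentage points, relative to the mean library) than in those with dox (-0.35 to -0.03). The GC content of the 46 transcripts ran from 36.4% to 61.7% with a median of 48.5%, close to the 47.9% of all genes. Across these genes, which share libraries and are not replicates, the log2 fold change rose with GC content (Spearman's rho 0.691 in WT8, 0.623 in MUT10 and 0.659 in MUT35, n = 46), and over all genes rho was 0.745, 0.574 and 0.655. With the GC trend of each library removed, 24 proteasome genes fell and 9 rose in WT8 (all genes, 19.7% and 20.6%), 36 fell and 4 rose in MUT10 (30.2% and 31.1%) and 29 fell and 6 rose in MUT35 (25.6% and 27.8%). Of the falls above, 16 of 22 in WT8, 28 of 32 in MUT10 and 20 of 25 in MUT35 were also called lower without the trend, and 2 genes in each clone were called in opposite directions. PSMC2 was 1 of the 2 in each clone. Of the 5 genes that rose in all 3 clones, PSMF1 also did so with the trend removed. GC slope and dox state moved together in each clone, the part of the slope in these changes was not tested, and values without the trend are given for the genes below whose calls it changed and for most of the others.

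**Figure D2:**
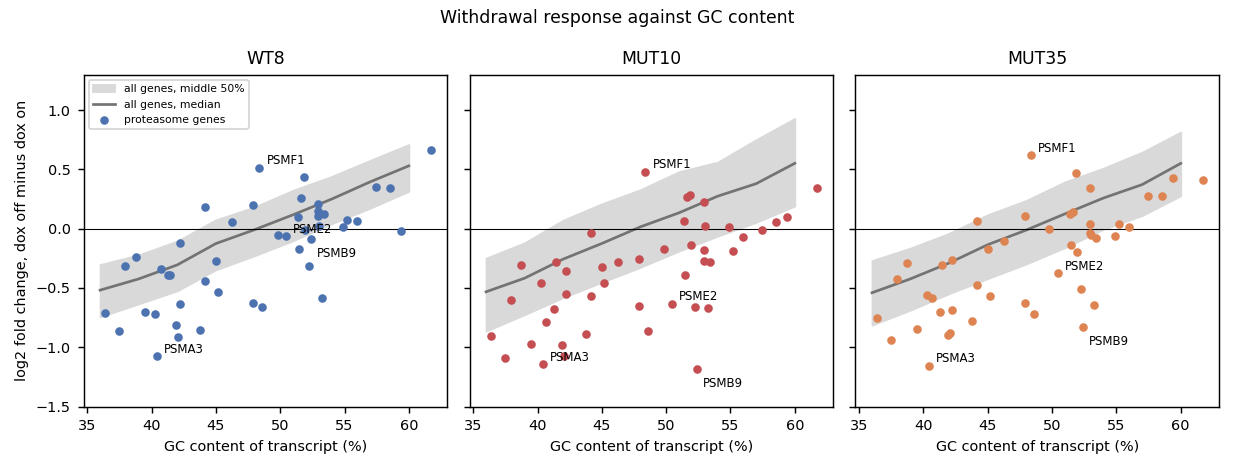
Log2 fold change after withdrawal (vertical axis) against the GC content of the transcript in percent (horizontal axis) in WT8, MUT10 and MUT35. Coloured points are the 46 proteasome genes, the grey line is the median and the grey band the middle 50% of all genes at that GC content; the proteasome genes rise with GC content as all genes do, and PSMB9 and PSME2 lie below the band in the mutant clones.

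The alpha ring, whose N-termini close the entry to the core, fell in all but 1 of its tested members. Of all genes, 29.8% fell in WT8, 32.3% in MUT10 and 31.3% in MUT35. The subunits that fell have a GC content of 37.9% to 43.8%. Of the other genes at 36.4% to 44.1% GC, 62.5% fell in WT8, 57.2% in MUT10 and 59.6% in MUT35. PSMA3 was at 137, 109, 124 and 130 CPM with dox and 57.3, 54.9, 59.9 and 64 CPM after withdrawal in WT8. PSMA3 in MUT10 was at 149, 119, 141 and 150 CPM with dox and 43.3, 66.2, 64 and 79.3 CPM after withdrawal. PSMA3 in MUT35 was at 146, 149, 159 and 139 CPM with dox and 71.8, 68.1, 73.2 and 52.7 CPM after withdrawal. The libraries of the dox states did not overlap in any clone, and the log2 fold changes were -1.08 (standard error 0.122, adjusted p = 2.86e-07) in WT8, -1.14 in MUT10 and -1.16 in MUT35. The median over the 7 tested alpha subunits was -0.70 in WT8, -0.89 in MUT10 and -0.78 in MUT35. PSMA2, PSMA4 and PSMA6 also fell in each clone, with PSMA2 at -0.70, -0.98 and -0.84, and PSMA7 was the member that rose, with log2 fold changes of 0.44 (standard error 0.0826, adjusted p = 8.33e-05), 0.28 (standard error 0.083, adjusted p = 0.00438) and 0.47 (standard error 0.0831, adjusted p = 2.91e-05). PSMA7 has the highest GC content of the ring, and without the GC trend its values were 0.28, 0.12 and 0.31, of which that in MUT10 was not called. PSMA3 kept -0.70, -0.79 and -0.78, and PSMA2, PSMA4 and PSMA6 were still called lower in each clone. PSMA1 came to lie between -0.06 and 0.03 and was not called in any clone. PSMA5 was called higher in WT8 (0.16) and lower in MUT10 (-0.11), and was not called in MUT35 (0.06).

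The beta subunits without a catalytic site did not move together. PSMB1 fell by 0.63, 0.65 and 0.63 on the log2 scale in WT8, MUT10 and MUT35, and without the GC trend it fell by 0.60, 0.64 and 0.60. PSMB4 fell in MUT35 (-0.20, standard error 0.0726, adjusted p = 0.0206), where its values in WT8 and MUT10 were -0.01 and -0.14, and with the trend removed it was lower in all 3 clones (-0.17, -0.30 and -0.36). PSMB2 and PSMB3 are described with the genes that differed between WT8 and the mutant clones.

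In the 19S base, 4 of the 6 ATPases fell in each clone, where 29.8% of all genes fell in WT8, 32.3% in MUT10 and 31.3% in MUT35. Of these ATPases, PSMC2 was called higher in all 3 clones without the GC trend (0.21, 0.14 and 0.16). PSMC6 was then lower in MUT10 (-0.34) and MUT35 (-0.20) and not called in WT8 (-0.17). PSMC1, with log2 fold changes of -0.66 (standard error 0.0796, adjusted p = 5.63e-07), -0.87 (standard error 0.0785, adjusted p = 5.57e-10) and -0.72 (standard error 0.079, adjusted p = 2.93e-08), was among the 4 falls with the smallest adjusted p in each, and without the GC trend it stood at -0.66, -0.88 and -0.72. Its counts carry a doubt of their own, since 13 pseudogenes of PSMC1 are annotated and reads can be shared with them. PSMC4 rose by 0.21, 0.22 and 0.34, but without the trend only its value in MUT35 (0.14) was called. PSMC3 was not called in any clone as deposited (between -0.07 and 0.07) and was lower in all 3 without the trend (-0.27, -0.41 and -0.32). Of the base subunits without ATPase activity, PSMD1, a scaffold that binds ubiquitin receptors and substrates, fell in all 3 clones, at -0.44, -0.57 and -0.48, and at -0.24, -0.38 and -0.27 without the trend. PSMD4, the ubiquitin receptor also known as Rpn10, was not called in any clone as deposited and was lower in all 3 without the trend (-0.18, -0.18 and -0.26).

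The lid holds PSMD14, the metalloprotease that cuts ubiquitin chains from the substrate, and it fell in each clone, with log2 fold changes of -0.64 in WT8, -0.55 in MUT10 and -0.69 in MUT35. Of the 8 lid subunits, 5 fell and 2 rose in WT8, 6 fell in MUT10, and 4 fell and 1 rose in MUT35. Of all genes, 29.8% fell and 29.5% rose in WT8, 32.3% and 33.8% in MUT10, and 31.3% and 32.0% in MUT35. With the GC trend removed all 8 lid subunits fell in MUT10 (all genes, 30.2%), and 5 fell in WT8 (19.7%) and in MUT35 (25.6%). The rises of PSMD3 and PSMD8 in WT8 were then not called (-0.11 and -0.05). PSMD13 was then lower in all 3 clones (-0.30, -0.53 and -0.28), PSMD8 in MUT10 and MUT35 (-0.42 and -0.13), PSMD3 in MUT10 (-0.40) and PSMD6 in WT8 and MUT10 (-0.12 and -0.17), while PSMD11 rose in WT8 (0.16). PSMD14 kept -0.34, -0.29 and -0.39. PSMD12 had the largest falls (-0.86, -1.09 and -0.94), of which -0.36, -0.58 and -0.43 were left without the GC trend. PSMD7, which pairs with PSMD14, changed by -0.53, -0.46 and -0.57, and by -0.39, -0.32 and -0.41 without the trend.

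Of the 20S assembly chaperones, PSMG1, PSMG2 and PSMG4 fell in all 3 clones, although the fall of PSMG2 in WT8 was not called without the GC trend (-0.04). PSMG1 and PSMG2 form a dimer on which the alpha ring is built. PSMG1 was at 47, 44.3, 38 and 44.2 CPM with dox and 22.4, 20.3, 22.8 and 26.2 CPM after withdrawal in WT8. PSMG1 in MUT10 was at 51.5, 39.3, 46.9 and 49.7 CPM with dox and 18, 23.3, 21.7 and 25.9 CPM after withdrawal. PSMG1 in MUT35 was at 40.3, 33.3, 39 and 36.2 CPM with dox and 20, 20.2, 20.5 and 19.8 CPM after withdrawal. Its log2 fold changes were -0.91 (standard error 0.1, adjusted p = 2.3e-07), -1.07 (standard error 0.0999, adjusted p = 9.48e-10) and -0.88 (standard error 0.102, adjusted p = 7.22e-08), with no overlap between dox states. Without the GC trend they were -0.61, -0.79 and -0.57. PSMG4 changed by -0.58, -0.67 and -0.64, and by -0.80, -0.88 and -0.86 without the trend. PSMG3, the partner of PSMG4, went the other way in MUT35, at 0.43 (standard error 0.0863, adjusted p = 0.00013), and at -0.02 in WT8, and without the trend it was at -0.06 and -0.50. The chaperones of the 19S base, PSMD5, PSMD9 and PSMD10, differed too, since PSMD5 and PSMD10 fell in every clone and PSMD9 in none. With the trend removed, PSMD10 stood at -0.32, -0.09 and -0.18, not called in MUT10, and PSMD5 was not called in WT8 (0.03).

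In the counts as deposited, the standard catalytic subunits fell in MUT10 and were not called in WT8 or MUT35, a pattern that was lost without the GC trend. PSMB5 carries the chymotrypsin-like site, the main target of bortezomib. PSMB5 in WT8 was at 33.4, 43, 43.9 and 43.3 CPM with dox and 51.3, 39.8, 40.6 and 46.5 CPM after withdrawal. PSMB5 in MUT10 was at 44.9, 53.6, 45.9 and 48.2 CPM with dox and 39.7, 43.6, 39.9 and 36.4 CPM after withdrawal. PSMB5 in MUT35 was at 45.4, 47.8, 40.3 and 34.7 CPM with dox and 42.4, 42.3, 43.1 and 36.2 CPM after withdrawal. The dox states overlapped in WT8 and MUT35 and were apart in MUT10, where it fell by 0.27 on the log2 scale (adjusted p = 0.0202).

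PSMB6 carries the caspase-like site. PSMB6 in WT8 was at 34.5, 43, 44.2 and 40.3 CPM with dox and 46.2, 40.7, 41.8 and 43.4 CPM after withdrawal. PSMB6 in MUT10 was at 64.7, 70.8, 67.7 and 57.8 CPM with dox and 58.3, 55.3, 60.6 and 55.3 CPM after withdrawal. PSMB6 in MUT35 was at 61.1, 67.6, 61.3 and 68.1 CPM with dox and 68.4, 66, 63.3 and 68.1 CPM after withdrawal. Its dox states overlapped in all 3 clones, although the fall in MUT10 passed the test at -0.19 (standard error 0.0705, adjusted p = 0.023). PSMB7 carries the trypsin-like site. PSMB7 in WT8 was at 132, 145, 145 and 153 CPM with dox and 135, 141, 143 and 134 CPM after withdrawal. PSMB7 in MUT10 was at 175, 179, 176 and 173 CPM with dox and 144, 154, 160 and 167 CPM after withdrawal. PSMB7 in MUT35 was at 153, 160, 163 and 150 CPM with dox and 154, 159, 163 and 151 CPM after withdrawal. It fell in MUT10 (-0.17, standard error 0.0514, adjusted p = 0.00585), and its values in WT8 and MUT35 were -0.06 and 0.00. The interaction, which is the difference of the withdrawal response between the mutant clones and WT8, was not called for these 3 genes (adjusted p = 0.133 for PSMB5, 0.25 for PSMB6 and 0.818 for PSMB7). Without the GC trend all 3 fell in MUT10, by 0.48, 0.49 and 0.24. PSMB6 then also fell in WT8 (-0.23) and MUT35 (-0.26), PSMB7 in WT8 (-0.12) and PSMB5 in MUT35 (-0.24).

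The inducible subunits PSMB8, PSMB9 and PSMB10 take the places of PSMB5, PSMB6 and PSMB7 in the immunoproteasome and differed in their calls. Their promoters and that of PSME2 are shown, since these genes share interferon-gamma as a known inducer but not their calls here. Each line gives 160 bases, 150 before the start site and 10 from it, read 5′ to 3′ on the strand of the gene (RefSeq, GRCh38.p14), from chr6:32844038-32844197 for PSMB8 (minus strand), chr6:32854042-32854201 for PSMB9 (plus strand), chr16:67936841-67937000 for PSMB10 (minus strand) and chr14:24146601-24146760 for PSME2 (minus strand). RefSeq gives 2 start sites for PSMB8, and the one with a match to the interferon-stimulated response element is shown.
PSMB8: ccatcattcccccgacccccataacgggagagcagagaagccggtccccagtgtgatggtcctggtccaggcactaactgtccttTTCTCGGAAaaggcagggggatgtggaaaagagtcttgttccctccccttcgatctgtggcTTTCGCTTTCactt
PSMB9: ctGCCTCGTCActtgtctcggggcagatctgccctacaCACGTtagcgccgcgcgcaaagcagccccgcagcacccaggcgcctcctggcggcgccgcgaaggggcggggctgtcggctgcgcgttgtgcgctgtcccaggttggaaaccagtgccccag
PSMB10: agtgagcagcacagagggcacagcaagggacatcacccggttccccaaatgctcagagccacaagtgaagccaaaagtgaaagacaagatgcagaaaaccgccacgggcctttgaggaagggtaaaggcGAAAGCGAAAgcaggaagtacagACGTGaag
PSME2: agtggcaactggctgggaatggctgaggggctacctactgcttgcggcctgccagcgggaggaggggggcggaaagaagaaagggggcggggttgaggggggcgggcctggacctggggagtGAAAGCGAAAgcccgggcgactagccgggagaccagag
Capitals mark matches, on either strand, to 2 copies of GAAA that are 2 bases apart (core of the interferon-stimulated response element), TTCNNNGAA (gamma-activated site), TGACNNNGC (core of the antioxidant response element) and ACGTG (core of the hypoxia response element). Matches of different motifs may overlap. In windows of 300 bases (250 before the start site and 50 after), 3.57% of 35116 RefSeq promoters hold the first, 7.66% the second, 13.3% the third and 21.4% the fourth. Of the 42 proteasome genes in that table, 7 hold the first (PSMA4, PSMB4, PSMB8, PSMB10, PSME1, PSME2 and PSMG4), 8 the second, 15 the third and 9 the fourth. The shares above count promoters, and of the 51 promoters of these genes 7, 8, 15 and 10 hold the motifs in that order. PSMB9, which has no match to the first in this window, has one each to the third and the fourth. A match is a string of letters and no measure of binding.

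PSMB9 codes for the inducible caspase-like position and lies on chromosome 6 in the MHC region, at 32844136 to 32859851 of hg38. PSMB9 in WT8 was at 6.83, 10.4, 9.08 and 9.02 CPM with dox and 7.78, 6.8, 9.13 and 9.68 CPM after withdrawal. PSMB9 in MUT10 was at 9.46, 9.64, 10.5 and 7.97 CPM with dox and 4.13, 4.82, 3.67 and 3.67 CPM after withdrawal. PSMB9 in MUT35 was at 9.82, 11.5, 9.04 and 10.1 CPM with dox and 5.28, 5.37, 4.88 and 7.31 CPM after withdrawal. All 8 mutant libraries without dox lay below all 8 mutant libraries with dox, and the WT8 libraries overlapped between the dox states. The log2 fold changes were -0.09 (standard error 0.141, adjusted p = 0.612) in WT8, -1.18 (standard error 0.153, adjusted p = 2.26e-07) in MUT10 and -0.83 (standard error 0.144, adjusted p = 2.29e-05) in MUT35. The difference between the mean mutant response and the WT8 response (the interaction) was -0.92 (standard error 0.176, adjusted p = 0.00031), the largest of all 46 genes, and -0.92 without the GC trend. After withdrawal, the mutant clones also stood below WT8, at -0.80 (standard error 0.125, adjusted p = 5.47e-06), while with dox their difference was 0.12 and not called. The ratio of PSMB9 to PSMB6 per kilobase was 0.116 ± 0.0068 (SD, n = 4) with dox and 0.0578 ± 0.0093 after withdrawal in MUT10. MUT35 gave 0.127 ± 0.0086 and 0.0695 ± 0.012. In WT8 it was 0.176 ± 0.016 with dox and 0.157 ± 0.025 after withdrawal.

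PSMB8 has its gene beside PSMB9 on the opposite strand. PSMB8 in WT8 was at 27.5, 30.8, 31.7 and 29.1 CPM with dox and 30.6, 28.8, 29.7 and 31.8 CPM after withdrawal. PSMB8 in MUT10 was at 26.8, 27.9, 27.9 and 27.6 CPM with dox and 27.4, 28.8, 29.5 and 25.6 CPM after withdrawal. PSMB8 in MUT35 was at 26, 26.9, 25.3 and 27.9 CPM with dox and 25.2, 29.6, 22.4 and 24.8 CPM after withdrawal. The dox states overlapped in every clone and the log2 fold changes were 0.02, 0.01 and -0.06, none of them called. With the GC trend removed, PSMB8 was lower in all 3 clones (-0.27, -0.28 and -0.35). In both ways its interaction was -0.04. The exons of PSMB8, PSMB9 and the antisense gene PSMB8-AS1 overlap, no source gives the strand used in counting, and reads could have been split among them. PSMB8-AS1 itself had a log2 fold change of 0.57 in WT8 (adjusted p = 0.103), -0.43 in MUT10 (adjusted p = 0.188) and -1.18 in MUT35 (adjusted p = 0.00141). It lies on the strand of PSMB9, so counting by strand would not separate them. Its interaction was -1.38 (adjusted p = 0.00644), and its part in the PSMB9 counts was not tested.

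PSMB10 is the inducible trypsin-like subunit. PSMB10 in WT8 was at 15.6, 21.6, 22.2 and 21.6 CPM with dox and 31.2, 37.6, 30.7 and 31.2 CPM after withdrawal. PSMB10 in MUT10 was at 16.5, 21.4, 16.3 and 16.5 CPM with dox and 25.5, 23.2, 25.9 and 15.4 CPM after withdrawal. PSMB10 in MUT35 was at 18.9, 19.3, 13 and 15.3 CPM with dox and 23.6, 21.3, 20.3 and 23.2 CPM after withdrawal. It was higher after withdrawal in each clone, with log2 fold changes of 0.67 (standard error 0.141, adjusted p = 0.000268) in WT8, 0.34 (standard error 0.144, adjusted p = 0.0385) in MUT10 and 0.41 (standard error 0.144, adjusted p = 0.015) in MUT35, with overlap in MUT10, where it was called in 25 of 35 alternatives, 2 of them as lower. The call in MUT10 was lost with library size alone (0.29), limma-voom (0.32), no low-count filter (0.32) or MUT10 fitted alone (0.36), and without any 1 of dox off replicates 1, 2 and 3 and dox on replicates 1, 3 and 4 (0.27 to 0.32). PSMB10 has the highest GC content of the 46 transcripts, 61.7%, and without the GC trend the rise was gone, at 0.08 in WT8, -0.25 in MUT10, where it was called lower, and -0.17 in MUT35. TAP1, the peptide transporter subunit whose gene lies back to back with PSMB9, was named after its values were seen. It had an interaction of -0.01 (standard error 0.148, adjusted p = 0.987), and its withdrawal values were 0.37, 0.20 and 0.53 in WT8, MUT10 and MUT35. Its partner TAP2 had an interaction of -0.52 (standard error 0.0751, adjusted p = 8.9e-06).

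**Figure D3:**
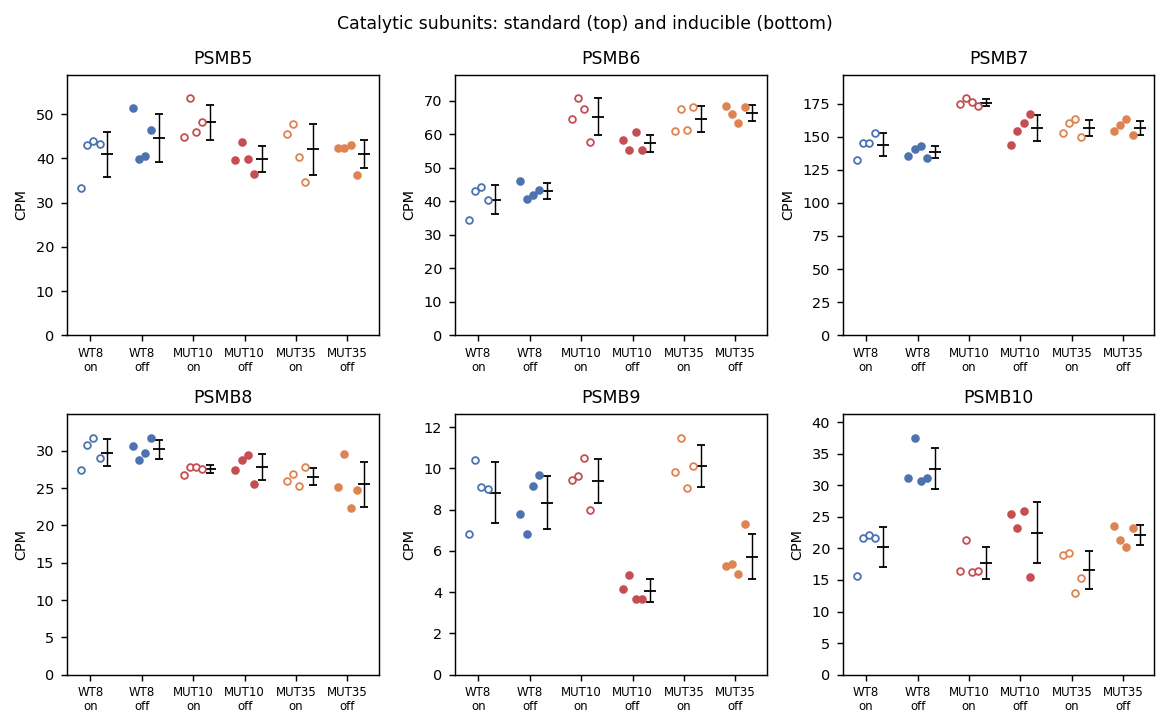
CPM (vertical axis, from 0) of the standard catalytic subunits PSMB5, PSMB6 and PSMB7 (top) and the inducible PSMB8, PSMB9 and PSMB10 (bottom) in the 6 groups of clone and dox state (horizontal axis). Each point is 1 of 24 libraries, open with dox and filled after withdrawal, and black bars are the mean and SD of 4; PSMB9 after withdrawal is at 3.67 to 4.82 CPM in MUT10 and 4.88 to 7.31 CPM in MUT35, below all dox libraries of those clones.

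The activators bind the ends of the 20S core in place of 19S. PSME1 and PSME2 form the PA28 alpha-beta ring, which interferon-gamma induces. PSME2 in WT8 was at 117, 131, 122 and 128 CPM with dox and 117, 113, 122 and 123 CPM after withdrawal. PSME2 in MUT10 was at 122, 123, 124 and 124 CPM with dox and 76.3, 80.7, 77.2 and 83.3 CPM after withdrawal. PSME2 in MUT35 was at 140, 134, 139 and 133 CPM with dox and 105, 102, 105 and 110 CPM after withdrawal. Its libraries without dox lay apart from and below those with dox in both mutant clones, and overlapped in WT8. The log2 fold changes were -0.07 (standard error 0.0476, adjusted p = 0.242), -0.64 (standard error 0.0482, adjusted p = 2.12e-11) and -0.38 (standard error 0.0475, adjusted p = 2.63e-07), and the interaction was -0.44 (standard error 0.0584, adjusted p = 2.26e-06), the smallest adjusted p among the proteasome genes. Removal of the GC trend gave -0.45.

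PSME1 in WT8 was at 132, 146, 139 and 138 CPM with dox and 172, 163, 168 and 165 CPM after withdrawal. PSME1 in MUT10 was at 119, 123, 128 and 113 CPM with dox and 147, 147, 149 and 138 CPM after withdrawal. PSME1 in MUT35 was at 141, 144, 142 and 145 CPM with dox and 137, 171, 157 and 164 CPM after withdrawal. It rose in each clone, by 0.26, 0.27 and 0.14 (adjusted p = 0.000337, 0.000201 and 0.0326), and its interaction was -0.06 (adjusted p = 0.602). The rise in MUT35 was called in 24 of 35 alternatives and lost without any 1 of MUT35 dox off replicates 2, 3 and 4, MUT35 dox on replicates 1, 2 and 3 and MUT10 dox on replicates 2 and 4 (0.10 to 0.14). Without the GC trend its values were 0.12 in WT8, 0.11 in MUT10 and, not called, -0.01 in MUT35. Per kilobase, PSME2 stood at 1.25 ± 0.066 (SD, n = 4) times PSME1 in MUT10 with dox and at 0.666 ± 0.05 times after withdrawal. The ratio went from 1.17 ± 0.042 to 0.821 ± 0.082 in MUT35 and from 1.09 ± 0.03 to 0.869 ± 0.039 in WT8. Whether PSME2 lay above PSME1 turned on the transcript, since per kilobase of the longest one the ratios with dox were 0.422, 0.395 and 0.369 in MUT10, MUT35 and WT8. The change of the ratio with dox does not depend on length. For PSME2, 6 pseudogenes are annotated, and its exons overlap those of RNF31 on the other strand, which rose by 0.68, 0.67 and 0.70 in WT8, MUT10 and MUT35, with an interaction of 0.00.

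PSME3 forms PA28 gamma, the nuclear activator, and was called higher in WT8 and lower in MUT10. PSME3 in WT8 was at 327, 324, 306 and 288 CPM with dox and 370, 359, 363 and 335 CPM after withdrawal. PSME3 in MUT10 was at 486, 491, 493 and 467 CPM with dox and 409, 414, 409 and 395 CPM after withdrawal. PSME3 in MUT35 was at 439, 429, 409 and 444 CPM with dox and 466, 469, 472 and 445 CPM after withdrawal. It rose in WT8 (0.20, standard error 0.0466, adjusted p = 0.000833) and MUT35 (0.11, standard error 0.0461, adjusted p = 0.0477) and fell in MUT10 (-0.25, standard error 0.0462, adjusted p = 3.53e-05), each without overlap. The rise in MUT35 was called in 14 of 35 alternatives only. It missed the threshold with library size alone (0.09), without the low-count filter (0.07), with MUT35 fitted alone (0.11), and without any 1 of 17 libraries, among them each MUT10 library with dox (0.08 to 0.11 over the 17). Its interaction was -0.27 (standard error 0.0569, adjusted p = 0.000842).

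PSME4 codes for PA200. PSME4 in WT8 was at 96, 89.4, 95.5 and 94.6 CPM with dox and 80.8, 84.5, 90.1 and 88.9 CPM after withdrawal. PSME4 in MUT10 was at 69.7, 60.9, 67.5 and 69.2 CPM with dox and 47.3, 50.7, 50.4 and 59.7 CPM after withdrawal. PSME4 in MUT35 was at 87.7, 81.8, 95.9 and 91.5 CPM with dox and 79.5, 72.8, 72.3 and 72.6 CPM after withdrawal. It fell in MUT10 (-0.36, standard error 0.0684, adjusted p = 5.56e-05) and MUT35 (-0.26, standard error 0.0662, adjusted p = 0.00122), but without the GC trend these were -0.09 and 0.04 and not called. The interaction was -0.19 (adjusted p = 0.0985), and without the trend it was called at -0.20. PSMF1, or PI31, binds the 20S core and is known as an inhibitor of it in vitro. PSMF1 in WT8 was at 163, 181, 163 and 147 CPM with dox and 254, 245, 223 and 211 CPM after withdrawal. PSMF1 in MUT10 was at 132, 151, 133 and 120 CPM with dox and 217, 177, 195 and 159 CPM after withdrawal. PSMF1 in MUT35 was at 145, 156, 143 and 155 CPM with dox and 222, 229, 228 and 242 CPM after withdrawal. It had the smallest adjusted p of the rises in each clone, at 0.51 (standard error 0.0824, adjusted p = 1.25e-05), 0.48 (standard error 0.0826, adjusted p = 1.66e-05) and 0.62 (standard error 0.082, adjusted p = 5.1e-07), with no overlap, and kept 0.52, 0.48 and 0.63 without the GC trend. Its interaction was 0.03 (adjusted p = 0.853).

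**Figure D4:**
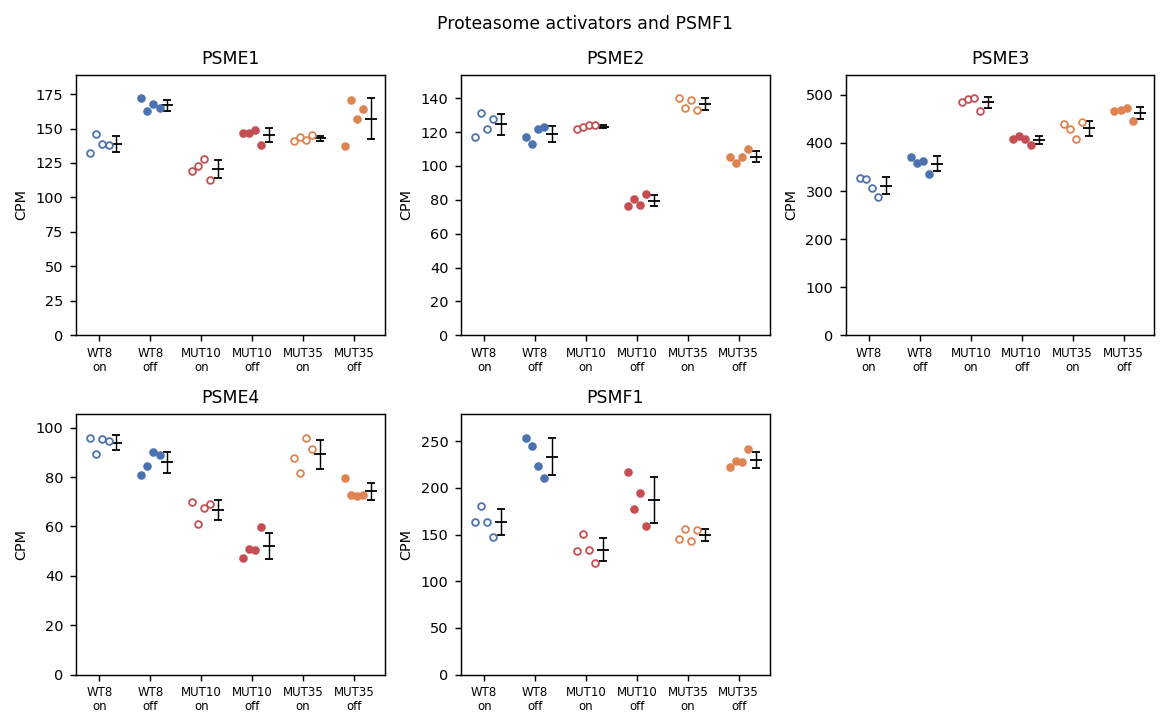
CPM (vertical axis, from 0) of the activator genes PSME1 to PSME4 and of PSMF1 in the 6 groups of clone and dox state (horizontal axis). Each point is 1 of 24 libraries, open with dox and filled after withdrawal, and black bars are the mean and SD of 4; PSME2 drops in MUT10 and MUT35 and overlaps in WT8, whereas PSMF1 is higher after withdrawal in each clone.

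The next comparison asks which proteasome genes responded differently where endogenous VHL was lost. The interaction called 11 of 46 genes lower in the mutant clones and 0 higher, where it called 11.4% of all genes lower and 12.1% higher (edgeR). At an unadjusted p under 0.05 the counts were 14 lower and 1 higher, and DESeq2 and limma-voom each gave 11 and 0. Across the 46 genes Spearman's rho between the interaction and GC content was -0.099, and without the GC trend 14 genes were lower and 1, PSMG3, higher (all genes, 16.8% and 16.5%), with 10 of the 11 genes called in both ways. PSMB2 missed the threshold there, and 8 of the 11 were called under each of the 34 alternatives that were run. Besides PSMB9, PSME2 and PSME3 these were PSMB3, PSMC5, PSMD5, PSMD11 and PSMG2. The median interaction of the 46 genes was -0.11 (-0.063 without MUT10 dox off replicate 1), against 0.007 over all genes, and 37 of the 46 values (80.4%) were below 0, as were 49.0% of those of all genes.

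PSMB3 is the beta subunit of highest level per kilobase. PSMB3 in WT8 was at 273, 272, 262 and 265 CPM with dox and 295, 288, 304 and 281 CPM after withdrawal. PSMB3 in MUT10 was at 457, 515, 503 and 451 CPM with dox and 386, 379, 410 and 408 CPM after withdrawal. PSMB3 in MUT35 was at 433, 459, 417 and 474 CPM with dox and 398, 456, 435 and 398 CPM after withdrawal. All WT8 libraries without dox lay above those with dox, those of MUT10 lay below and those of MUT35 overlapped, with log2 fold changes of 0.12 (adjusted p = 0.0579, not called), -0.28 and -0.08 and an interaction of -0.31 (standard error 0.0682, adjusted p = 0.00144). PSMB3 values without the trend were -0.10, -0.51 and -0.30, called in both mutant clones. PSMB2 is another structural beta subunit. PSMB2 in WT8 was at 872, 919, 841 and 857 CPM with dox and 1030, 987, 1000 and 944 CPM after withdrawal. PSMB2 in MUT10 was at 980, 1030, 987 and 958 CPM with dox and 992, 933, 972 and 951 CPM after withdrawal. PSMB2 in MUT35 was at 871, 913, 846 and 866 CPM with dox and 875, 945, 934 and 902 CPM after withdrawal. It rose in WT8 (0.18, standard error 0.0432, adjusted p = 0.000793) and had values of -0.04 and 0.06 in MUT10 and MUT35, not called, with an interaction of -0.17 (standard error 0.0528, adjusted p = 0.0196). With the trend removed PSMB2 was higher in all 3 clones (0.38, 0.15 and 0.27).

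PSMC5, the ATPase also known as Rpt6, fell in all clones and more in the mutants. PSMC5 in WT8 was at 58.8, 69.9, 70.2 and 68.6 CPM with dox and 55.4, 50.5, 56.4 and 53.1 CPM after withdrawal. PSMC5 in MUT10 was at 147, 137, 136 and 133 CPM with dox and 80, 85.6, 89.7 and 94.9 CPM after withdrawal. PSMC5 in MUT35 was at 129, 137, 134 and 117 CPM with dox and 87.5, 94.5, 91.3 and 90.4 CPM after withdrawal. No clone's dox states overlapped, and the interaction was -0.27 (standard error 0.0794, adjusted p = 0.0146). FTSJ3, whose exons overlap those of PSMC5 on the other strand, had an interaction of -0.41 (adjusted p = 0.00354), and its part in the PSMC5 counts was not tested. PSMD11 is a lid subunit. PSMD11 in WT8 was at 201, 203, 199 and 195 CPM with dox and 219, 200, 207 and 204 CPM after withdrawal. PSMD11 in MUT10 was at 374, 366, 356 and 361 CPM with dox and 292, 314, 303 and 291 CPM after withdrawal. PSMD11 in MUT35 was at 334, 329, 328 and 301 CPM with dox and 285, 310, 300 and 309 CPM after withdrawal. It fell in MUT10 (-0.28, standard error 0.0451, adjusted p = 6.51e-06), its values in WT8 and MUT35 were 0.06 and -0.10, and the interaction was -0.25 (standard error 0.056, adjusted p = 0.00176). PSMD2 is a large subunit of the base and a docking site for shuttle factors. PSMD2 in WT8 was at 230, 266, 268 and 261 CPM with dox and 282, 282, 285 and 289 CPM after withdrawal. PSMD2 in MUT10 was at 348, 410, 389 and 359 CPM with dox and 333, 332, 340 and 324 CPM after withdrawal. PSMD2 in MUT35 was at 324, 345, 307 and 329 CPM with dox and 329, 354, 329 and 328 CPM after withdrawal. It rose in WT8 (0.15, standard error 0.0546, adjusted p = 0.0215) and fell in MUT10 (-0.18), and the interaction was -0.22 (standard error 0.0667, adjusted p = 0.0165). Without WT8 dox on replicate 1, the lowest of its libraries, these came to 0.10 (adjusted p = 0.11) in WT8 and -0.18 (adjusted p = 0.0515) in the interaction, neither called. PSMD2 values with the trend removed were -0.05, -0.38 and -0.16, and the rise in WT8 was not called.

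PSMA5 fell in every clone. PSMA5 in WT8 was at 311, 297, 308 and 307 CPM with dox and 240, 232, 255 and 255 CPM after withdrawal. PSMA5 in MUT10 was at 356, 325, 349 and 345 CPM with dox and 203, 232, 222 and 249 CPM after withdrawal. PSMA5 in MUT35 was at 312, 309, 309 and 304 CPM with dox and 237, 240, 230 and 212 CPM after withdrawal. The dox states were apart throughout, the interaction was -0.20 (standard error 0.0665, adjusted p = 0.0301), the log2 fold changes were -0.31, -0.60 and -0.42, and without the GC trend PSMA5 rose in WT8 (0.16) and fell in MUT10 (-0.11). Among the assembly chaperones, PSMD5 keeps base ATPases from the core until they are assembled. PSMD5 in WT8 was at 96, 86.5, 89.5 and 89.1 CPM with dox and 69.3, 70.4, 71.9 and 73 CPM after withdrawal. PSMD5 in MUT10 was at 114, 91, 105 and 112 CPM with dox and 50.6, 63.9, 56.9 and 72.6 CPM after withdrawal. PSMD5 in MUT35 was at 105, 92.5, 101 and 91.3 CPM with dox and 67.9, 60.5, 67.8 and 63.1 CPM after withdrawal. Its falls were apart in each clone and were larger in the mutants (-0.34, standard error 0.101, adjusted p = 0.0141). Without the GC trend its values were 0.03 in WT8, -0.44 in MUT10 and -0.21 in MUT35, with an interaction of -0.35. PSMG2 in WT8 was at 68.9, 58.4, 57.9 and 57.1 CPM with dox and 46.2, 44.9, 49.3 and 43.7 CPM after withdrawal. PSMG2 in MUT10 was at 58.2, 48, 53 and 57.1 CPM with dox and 34.7, 34.4, 30.2 and 35.8 CPM after withdrawal. PSMG2 in MUT35 was at 48.2, 45.8, 50 and 48.6 CPM with dox and 30.7, 29.3, 29.9 and 28.7 CPM after withdrawal. It fell in each clone (-0.39, -0.67 and -0.70) and more in the mutants, with an interaction of -0.30 (standard error 0.0868, adjusted p = 0.0126). Removal of the trend left -0.04 in WT8, not called, -0.35 in MUT10 and -0.36 in MUT35, with an interaction of -0.31. Its dimer partner PSMG1 had an interaction of -0.06 (adjusted p = 0.769).

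Between the mutant clones, the withdrawal response of MUT10 was lower than that of MUT35 for 2 genes, PSME3 (-0.36, standard error 0.0653, adjusted p = 0.000386) and PSME2 (-0.26, standard error 0.0676, adjusted p = 0.0107), and higher for 0, where 4.41% of all genes were lower and 6.70% higher. At an unadjusted p under 0.05 there were 11 lower and 0 higher, DESeq2 called 8 and 0 and limma-voom 2 and 0. The count rested on single libraries, since it was 4 without MUT10 dox off replicate 4, 4 without MUT10 dox on replicate 2 and 6 without MUT10 dox on replicate 4. Without the GC trend 11 genes were lower (all genes, 9.39% lower and 10.4% higher).

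The last comparison sets the mutant clones against WT8 at the same dox state. With dox, 17 of 46 proteasome genes were higher in the mutant clones and 5 lower (all genes, 20.6% and 22.6%), and after withdrawal 19 were higher and 11 lower (27.6% and 28.2%). Without the 2 MUT10 libraries of intermediate GC slope, dox off replicate 4 and dox on replicate 2, 26 were higher with dox, where 25.2% of all genes were. With the GC trend removed, 22 were higher and 9 lower with dox (all genes, 24.6% and 26.8%). By chromosome, all 7 tested genes on chromosome 17 (PSMB3, PSMB6, PSMC5, PSMD3, PSMD11, PSMD12 and PSME3, from 4796144 to 67366605 of hg38) were higher in the mutant clones in both dox states, with medians of 0.79 with dox and 0.53 after withdrawal. Of the 39 genes elsewhere, 10 were higher and 5 lower with dox and 12 and 11 after withdrawal, with medians of 0.11 and 0.04. The other genes of the chromosome were also mostly higher. Of 791 other tested genes on chromosome 17, 72.1% were higher and 3.67% lower with dox (median 0.51), and 70.8% and 6.57% after withdrawal (median 0.48).

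Of the genes on chromosome 17, PSMC5 differed most with dox (0.99, standard error 0.0578, adjusted p = 1.55e-13) and by 0.73 (standard error 0.0571, adjusted p = 3.25e-11) after withdrawal. PSMD11 stood at 200 ± 3.4 CPM (SD, n = 4) in WT8, 364 ± 7.9 in MUT10 and 323 ± 15 in MUT35 with dox. PSMD12 stood at 40.4 ± 3, 84 ± 11 and 68.1 ± 2.6 CPM, and PSMB6 at 40.5 ± 4.3, 65.2 ± 5.5 and 64.5 ± 3.9 CPM. The lowest of the 7 differences were those of PSME3, 0.55 with dox and 0.28 after withdrawal. The withdrawal response itself is taken within a clone, and there the other genes of the chromosome had a median interaction of -0.03, with 14.4% called lower and 10.6% higher. Of the 7 proteasome genes on it 4 were called lower, with a median of -0.25.

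Other chromosomes differed between the mutant clones. PSMC4 and PSMD8, both on chromosome 19, were 0.74 and 0.72 above WT8 in MUT35 with dox and 0.38 and 0.22 above it in MUT10 (differences of mean log2 CPM), and the 991 other genes of that chromosome had medians of 0.40 in MUT35 and 0.06 in MUT10. On chromosome 2, PSME4, PSMD14 and PSMD1 stood at -0.49, -0.40 and -0.16 against WT8 in MUT10, and at -0.07, 0.14 and 0.25 in MUT35, with medians of -0.51 and -0.04 over 902 other genes. PSMA7 and PSMF1 lie on chromosome 20 and were lower in the mutant clones in both dox states, at -0.36 and -0.20 with dox, beside a median of -0.25 over 369 other genes. PSMC4 had the smallest adjusted p of the genes higher after withdrawal (0.64, standard error 0.0405, adjusted p = 4.23e-13), and PSME2 (-0.38, standard error 0.0408, adjusted p = 1.18e-08) and PSMG2 (-0.54, standard error 0.0613, adjusted p = 2.91e-08) of those lower, with PSME4 at -0.47. With dox the genes higher besides PSMC5 were led by PSMD11 (0.78), PSMC4 (0.56) and PSMB3 (0.79), and PSME4 (-0.28), PSMG2 (-0.24) and PSMD7 (-0.18) were lower beside PSMA7 and PSMF1. No copy number was measured in these libraries, and genotype and clone cannot be told apart in this comparison.

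**Figure D5:**
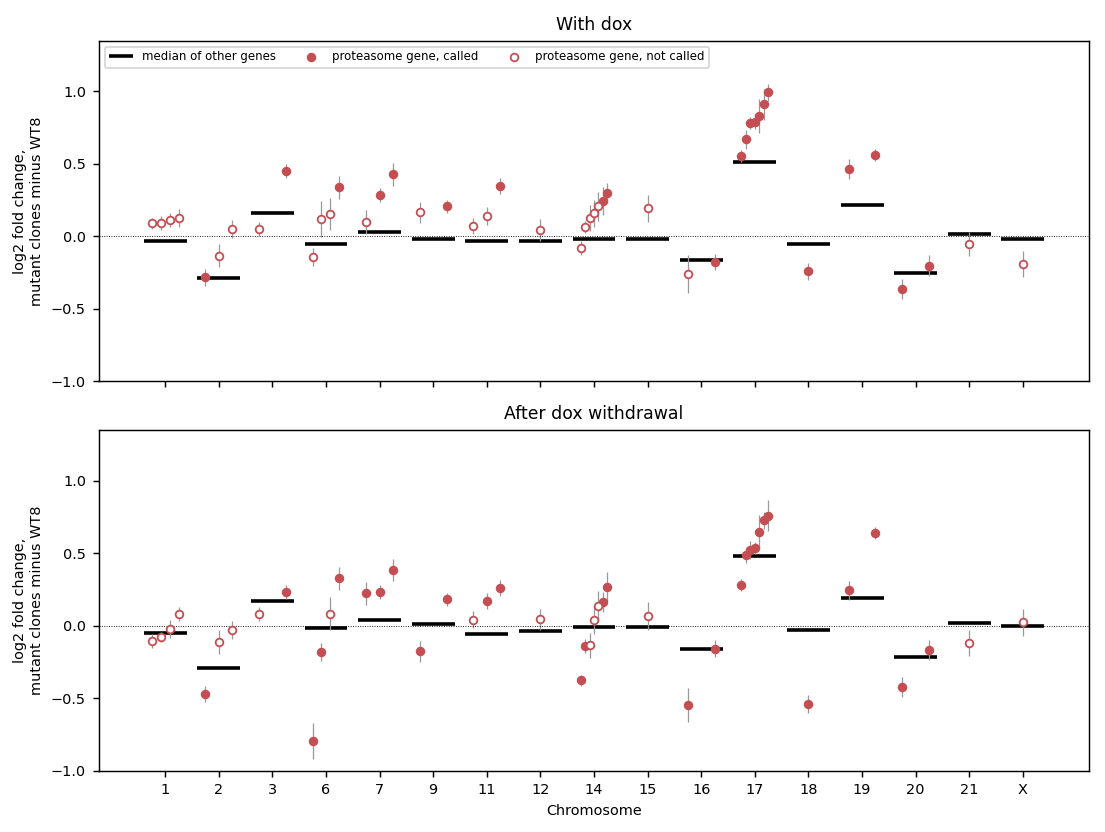
Log2 fold change of the mutant clones minus WT8 (vertical axis) with dox (top) and after withdrawal (bottom) for the 46 proteasome genes by chromosome (horizontal axis). Red points are genes with standard errors, filled where called, and black lines are the medians of the other tested genes of the chromosome; all 7 genes on chromosome 17 lie above 0, where the median of the other genes is 0.51 with dox and 0.48 after withdrawal.

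Of 10 further genes of the proteasome without a PSM symbol, fixed as a list, 6 fell and 2 rose in WT8, 7 fell and 1 rose in MUT10, and 7 fell and 1 rose in MUT35. Of all genes, 29.8% fell and 29.5% rose in WT8, 32.3% and 33.8% in MUT10, and 31.3% and 32.0% in MUT35. UCHL5, a deubiquitinase of the base, changed by -1.15 (standard error 0.149, adjusted p = 1.2e-06), -1.34 (standard error 0.148, adjusted p = 1.78e-08) and -1.30 (standard error 0.154, adjusted p = 9.84e-08). SHFM1, the smallest lid subunit, stood at -1.36, -1.19 and -1.18, and POMP, which completes 20S assembly, at -1.34, -1.20 and -1.19. Without the GC trend UCHL5 kept -0.52, -0.67 and -0.65 and POMP -0.67, -0.46 and -0.50, and SHFM1 had no GC value. In the interaction 2 of the 10 were lower, AKIRIN2 (-0.29, standard error 0.0568, adjusted p = 0.000455), which carries proteasomes into the nucleus, and the deubiquitinase USP14 (-0.24, standard error 0.0586, adjusted p = 0.00352), and none was higher. The interaction called 11.4% of all genes lower and 12.1% higher. AKIRIN2 and USP14 fell in MUT10 (-0.46 and -0.39), and with the trend removed AKIRIN2 kept -0.57 while USP14 came to 0.08, not called. Their interactions were then -0.30 and -0.23, both called. Against WT8 after withdrawal, AKIRIN2 stood at -0.26, SHFM1 at 0.57 and ADRM1, a ubiquitin receptor of the base, at -0.31. These values were not set beside those of other genes of the same chromosomes.

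Of 4 regulators of proteasome genes, NFE2L1, the factor that raises proteasome transcription when degradation is blocked, was higher in the interaction (0.46, standard error 0.0787, adjusted p = 7.72e-05), as was NGLY1 (0.37, standard error 0.111, adjusted p = 0.0148), which removes its sugar chains. NFE2L1 rose by 0.77 in MUT10 and 0.44 in MUT35, and its value in WT8 was 0.15. With the trend removed NFE2L1 stood at -0.14, 0.48 and 0.16, called lower in WT8 and higher in the mutant clones, and the interactions were 0.46 for NFE2L1 and 0.36 for NGLY1. The response of NFE2L1 was larger in MUT10 than in MUT35 (0.33), and it stood above WT8 at 0.57 with dox and 1.03 after withdrawal. These differences from WT8 were not set beside those of other genes of its chromosome. NFE2L2, the factor of the antioxidant response, fell in each clone (-0.29, -0.18 and -0.33), but not with the trend removed (0.02, 0.10 and -0.03, none called). The protease DDI2 rose in WT8 (0.33), and with the trend removed in all 3 clones (0.60, 0.41 and 0.49). Of 13 genes for ubiquitin and substrate delivery, 2 were lower in the interaction and 1 was higher, where 11.4% of all genes were lower and 12.1% higher. The lower ones were UBB (-0.29, standard error 0.0787, adjusted p = 0.00719), which codes for polyubiquitin, and UBQLN4 (-0.31, standard error 0.109, adjusted p = 0.0377), a shuttle factor. UBB and UBQLN4 kept -0.30 and -0.31 without the trend. In that list 7 rose and 3 fell in WT8, 6 and 3 in MUT10 and 7 and 3 in MUT35. Of all genes, 29.5% rose and 29.8% fell in WT8, 33.8% and 32.3% in MUT10, and 32.0% and 31.3% in MUT35. The called genes of the list included UBQLN2, another shuttle factor, at 0.44, 0.59 and 0.61, and RPS27A, a ubiquitin and ribosomal fusion gene, at -0.50, -0.63 and -0.51. Removal of the trend left 0.62, 0.77 and 0.80 for UBQLN2 and -0.17, -0.33 and -0.18 for RPS27A, all called. Of 8 genes of the interferon axis and of peptide loading, 3 rose and 2 fell in WT8, 4 and 2 in MUT10 and 3 and 3 in MUT35. The shares of all genes are those given with the list before. TAPBP, the bridge between the transporter and class I, rose by 0.74, 0.86 and 0.85, and B2M, the light chain of class I, fell in WT8 (-0.47) and MUT35 (-0.73). With the trend removed TAPBP kept 0.34, 0.46 and 0.47, and B2M was called in MUT35 (-0.30) and not in WT8 (-0.04). TAP2, whose interaction is given with PSMB10, had a response in MUT10 that differed from that in MUT35 by -0.59, and without the trend its interaction was -0.53.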

How the data were processed

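The data are 24 RNA-seq libraries of WT8, MUT10 and MUT35, 4 for each clone and dox state. The authors deposited RSEM expected counts per gene symbol, made with RSEM and Bowtie2 on hg38 per the labels, with versions not given in the sources used here. The labels name a KAPA stranded kit and the methods another, and the strand used in counting is not given. Samples were grouped by title and treatment, and 0 columns were left unmapped.

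Expected counts were rounded and tested with edgeR 4.0.16 (R 4.3.3), using TMM, filterByExpr and 1 quasi-likelihood fit of 6 group means over 24 libraries. All 8 contrasts were adjusted by Benjamini-Hochberg over 13900 genes (threshold 0.05). The interaction is the mean mutant withdrawal response minus that of WT8. CPM used TMM library sizes. The standard error of a log2 fold change is that of the fit, and group errors are SDs of CPM. GC content came from GENCODE v44 transcripts (13471 tested genes, 96.9%), and its trend was removed per library by a loess offset (span 0.4). Levels per kilobase used the MANE Select transcript. Alternatives were RLE factors, library size alone, DESeq2 1.42.0, limma-voom 3.58.1, other low-count filters, the replicate block, GC removal, both together, leaving out libraries, and each clone alone. All were listed with the tests at the outset. The fit was also run on simulated counts that had no GC trend, so that run does not bear on the part of the trend in the calls.

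Promoters came from RefSeq GRCh38.p14, where 42 of 48 genes matched. Of the proteasome genes, 17 have annotated pseudogenes and 22 overlap exons of another gene, where RSEM may divide reads.

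The proteasome genes, pathway lists and marker lists were chosen with earlier results of these data known. Per-library values are given for catalytic subunits, activators and genes called in the interaction, and values for up to 4 called proteasome genes per direction and comparison and, for the pathway lists, up to 3 genes per list and comparison, by smallest adjusted p, apart from 3 listed genes that are not reported here. Library totals of 5206663 to 18196003 counts set the precision, and floors of 3 counts cover counting error only. Python 3.11.15 and matplotlib 3.10.9 were used for tables and plots.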

Additional observations from a re-analysis of the deposited data

Results flagged for a closer look

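Among 114 sets of 4 libraries of named proteasome genes, 10 had a library that stood apart from the other 3 by Dixon's test (critical value 0.829), where chance gives about 1 in 20. WT8 dox on replicate 1 accounted for 5 of them. It had 15.6 CPM of PSMB10 (21.6 to 22.2 in the others), 33.4 CPM of PSMB5 (43.0 to 43.9), 58.8 CPM of PSMC5 (68.6 to 70.2), 230 CPM of PSMD2 (261 to 268) and 68.9 CPM of PSMG2 (57.1 to 58.4). Without this library the interaction values were -0.22 for PSMC5, -0.18 for PSMD2 and -0.36 for PSMG2, of which that of PSMD2 missed the threshold (adjusted p = 0.0515, edgeR).

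In the other libraries that stood apart, PSMB10 was at 37.6 CPM in WT8 dox off replicate 2 (30.7 to 31.2 in the others) and at 21.4 CPM in MUT10 dox on replicate 2 (16.3 to 16.5). PSMB5 was at 36.2 CPM in MUT35 dox off replicate 4 (42.3 to 43.1). PSMD2 was at 354 CPM in MUT35 dox off replicate 2 (328 to 329), and PSME4 was at 79.5 CPM in MUT35 dox off replicate 1 (72.3 to 72.8).

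The mean withdrawal response of the mutant clones differed from that of WT8 for 11 proteasome genes, each lower in the mutant mean. The difference was -0.92 on the log2 scale for PSMB9, -0.44 for PSME2, -0.34 for PSMD5, -0.31 for PSMB3, -0.30 for PSMG2, -0.27 for PSME3 and PSMC5, -0.25 for PSMD11, -0.22 for PSMD2, -0.20 for PSMA5 and -0.17 for PSMB2. Between MUT10 and MUT35 the response differed by -0.36 for PSME3 and by -0.26 for PSME2. PSME3 was higher after withdrawal in MUT35, as in WT8, and lower in MUT10.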

How the results depend on the processing

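With the GC trend removed, the interaction called 1 proteasome gene higher (0 as reported) and mutant minus WT8 with dox called 9 lower (5 as reported), in both cases also with the replicate block added. Genes with a lower response in MUT10 than in MUT35 (2 as reported) were 11 with the GC trend removed, 12 with the block as well, 11 without the 2 MUT10 libraries of intermediate GC slope, 8 by DESeq2, 8 with library size alone, 5 with RLE factors and 1 without the low-count filter. Without those 2 MUT10 libraries 26 genes were higher in mutant minus WT8 with dox (17 as reported), and the median over proteasome genes came to -0.422 in MUT10, -0.346 in the mutant clones, -0.164 in the interaction and -0.181 in MUT10 minus MUT35. Without the trend the median was -0.162 in WT8 and -0.366 in MUT10, and it was -0.366 in MUT10 with library size alone. Per kilobase of the longest transcript, levels of PSMB8, PSMB9, PSME1 and PSME2 moved beyond their SD in all 6 groups, and PSME2 fell below PSME1 in each.

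With 1 library left out, genes higher after withdrawal in MUT35 numbered 5 to 9, those higher in the interaction 0 to 1, and those lower in MUT10 than in MUT35 2 to 6. The single gene higher in the interaction came without MUT10 dox off replicate 2.

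Among the values followed over the alternatives and called as reported or in the alternative, direction changed only where the GC trend was removed. PSMC2 in each clone and PSMD8 in MUT35 were not among them and were then called in the opposite direction. With the trend removed, the followed log2 fold changes that turned in WT8 were 0.16 for PSMA5 (0.17 with the block), -0.23 for PSMB6, -0.27 for PSMB8, -0.05 for PSMD2, 0.03 for PSMD5 and 0.17 for PSME4. In MUT10 they were -0.25 for PSMB10, 0.15 for PSMB2 and -0.28 for PSMB8. In MUT35 they were 0.06 for PSMA5, -0.17 for PSMB10, -0.26 for PSMB6, -0.16 for PSMD2, -0.01 for PSME1, 0.04 for PSME4 and -0.06 for PSMG3 (-0.07 with the block). The values with the block were otherwise equal at 2 decimals. The cause of these changes was not tested.

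The deviations of same-numbered libraries of a clone correlated at -0.153 to 0.29, and over 0.1 in 2 of 12 pairs. Over all same-numbered pairs the range was -0.243 to 0.297, with 9 of 60 over 0.1. With dox, replicate 2 gave 0.297 between WT8 and MUT10, 0.174 between MUT10 and MUT35 and 0.146 between WT8 and MUT35. These values cannot decide whether same-numbered libraries were paired, and a shared batch was not tested. The replicate block changed no call of a named gene, and genes lower in the interaction numbered 12 with it (11 as reported). Depth limits PSMA8 and PSMB11, which had 0 counts in 24 libraries.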
